A study of Saccharomyces cerevisiae with 5 samples.

Results

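The insert described here is the stretch of *Debaryomyces hansenii* chromosome C that *Saccharomyces cerevisiae* strain YAC6 carried on a yeast artificial chromosome (YAC). Its members are all 52 genes listed for that insert, whose identifiers all start with DEHA2C, out of 288 insert genes listed over the 5 strains of the study. They were set against 4580 of the 5264 host genes of the same library. The other 684 host genes, whose systematic names start with YB or YJ (chromosomes II and X), were left out because their listed start sites are held to be displaced, which was not measured here.

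The study held 5 strains with 1 library each. YAC6 and YAC7 carried *D. hansenii* DNA with 52 and 102 listed genes, and YAC1, YAC2 and YAC3 carried *Kluyveromyces lactis* DNA with 58, 37 and 39. All strains were grown in a medium without added tryptophan and uracil, the usual selection for both arms of a YAC, with 2% dextrose, 1.5% yeast extract, 1% peptone and 0.01% adenine. Spheroplasts were made with zymolyase and digested with micrococcal nuclease, which cuts DNA between nucleosomes, and the protected mononucleosomal DNA was sequenced. The host strain's genotype beyond these names is not given in the sources used here. The foreign genes and the host genes were thus packaged in the same cells and read from the same library, and 1 insert in 1 strain is all that stands behind the values. Spread between cultures of YAC6 could not be measured, and genes are not replicates, so the comparisons below carry no test.

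A yeast artificial chromosome is a linear vector with a centromere, a replication origin and telomeres, which the host copies and segregates like one of its own chromosomes. At most genes of budding yeast a nucleosome-depleted region lies just upstream of the transcription start. It is flanked by a -1 nucleosome upstream and a well-placed +1 nucleosome downstream, from which a regular array runs into the gene. In *S. cerevisiae* such depleted regions are linked to stiff poly(dA:dT) tracts, to general regulatory factors and to the remodeller RSC, while other remodellers space the array. *D. hansenii* is a salt-tolerant marine yeast, distant from *S. cerevisiae*, so its promoters were read here by host proteins they did not evolve with.

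The insert was covered as deeply as the host genome. The signal of a gene is coverage with nucleosomal DNA on a scale whose mean is near 1, given for bins of 10 bp that span -500 to 1000 bp around its listed start. The gene mean had a median of 1.02 over the insert genes and 0.990 over the host genes, a log2 difference of 0.05. Both tables of YAC6 rose in the same smallest step, 0.000662, so their mean signal was 1533 steps per bin over the insert and 1477 over the host. The number of reads is unknown. All insert genes reached 10% of the median host gene in mean signal and 5 host genes did not, so 4575 host genes were kept.

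**Figure D1:**
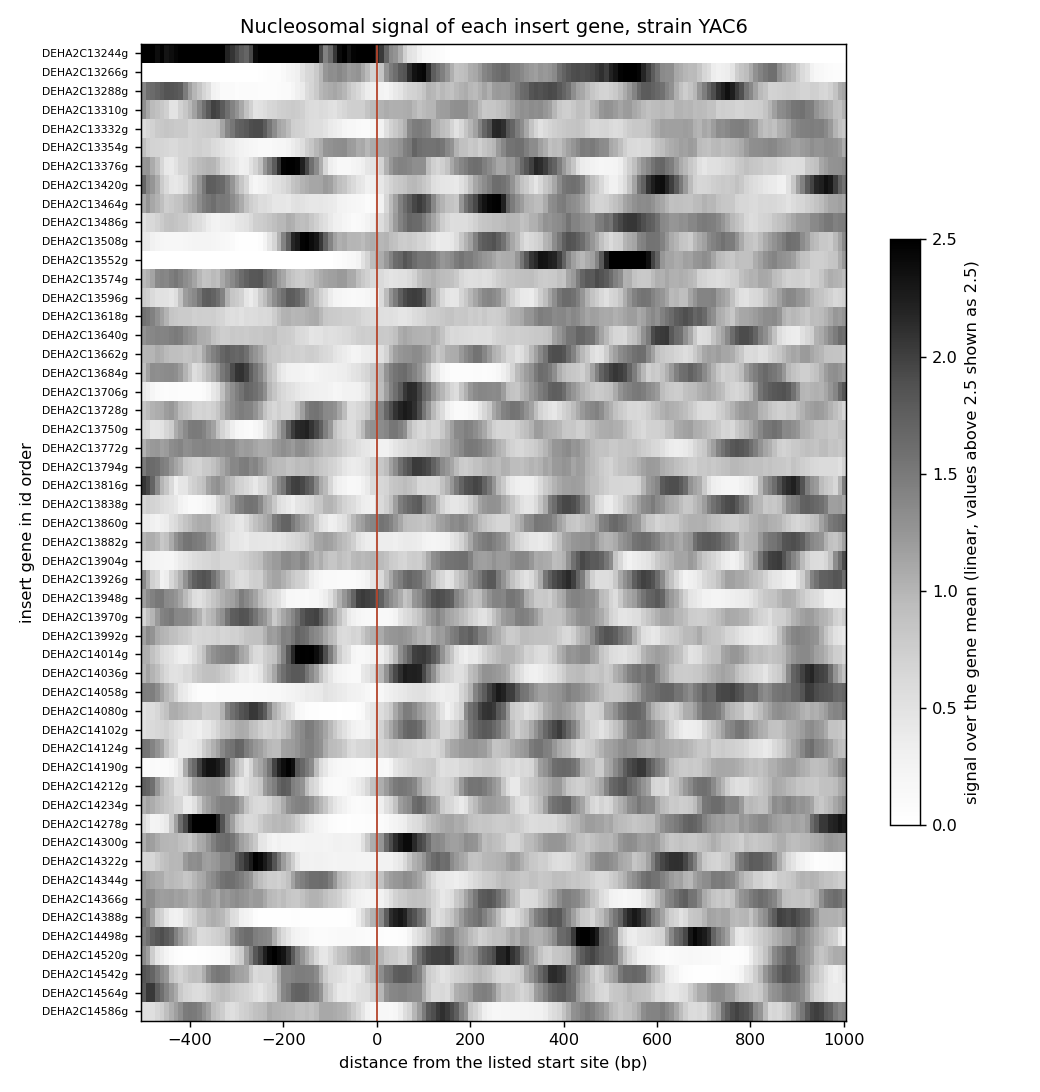
Nucleosomal signal of the 52 insert genes of strain YAC6, 1 row per gene in identifier order, against distance from the listed start site (bp); the grey scale is signal over the gene's own mean, linear, with values above 2.5 shown as 2.5. A pale gap just upstream of the start, marked by the red line, appears in some rows and not in others, and long white blocks mark the 3 genes with many bins at 0.

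Stretches with no signal at all were found in 3 genes, and no other insert gene had a single bin at 0. DEHA2C13244g, the first identifier of the insert, had 85 bins at 0, in 1 unbroken run from 160 to 1000 bp. Its neighbour DEHA2C13266g had 24, from -500 to -270 bp, and DEHA2C13552g had 41, from -500 to -100 bp. With 15 bins or more at 0 as the line for many, these were 3 of 52 insert genes (5.77%), against 24 of 4575 host genes (0.525%). DEHA2C13244g and DEHA2C13266g point away from each other with starts 108 bp apart, and the edge of the empty stretch falls 160 bp from the start of DEHA2C13244g in its own window and 162 bp from it in the window of DEHA2C13266g. It is therefore 1 empty stretch seen from both sides. DEHA2C13552g comes after an identifier that is not listed. Between the first and the last identifier, DEHA2C14586g, 10 of 62 are not listed, in 6 gaps of at most 4, so the order of the genes is known better than the distance between them. The cause of the empty stretches was not tested. They also set the lowest gene means of the insert, 0.265 for DEHA2C13244g, 0.521 for DEHA2C13266g and 0.733 for DEHA2C13552g, followed by 0.794 for DEHA2C14520g and 0.797 for DEHA2C13486g, which had no bin at 0. The highest were 1.33 for DEHA2C14102g, 1.28 for DEHA2C14344g, 1.26 for DEHA2C14234g, 1.24 for DEHA2C13750g and 1.21 for DEHA2C13728g, so apart from the emptied genes coverage was even along the insert.

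Promoters of the insert were less depleted than host promoters. A promoter ratio compares the mean signal just upstream of the start (-120 to -20 bp) with that inside the gene (100 to 500 bp), as log2 after 0.1 times the gene mean is added to both, and the more negative it is, the emptier the promoter. Its median was -0.74 over the insert genes, with the quartiles at -1.58 and -0.32 and a 95% interval of -1.21 to -0.49 for the median, and -2.41 over the host genes, with the quartiles at -2.92 and -1.59. The insert median was higher by 1.67, and it stood at percentile 91.3 of the host genes. Of the 52 genes, 47 lay above the host median and 39 above the host upper quartile, while none lay below the host lower quartile. The difference lay on the promoter side of the ratio: promoter signal had a median of 0.631 in insert genes and 0.124 in host genes, whereas signal inside the gene had medians of 1.12 and 1.09. The interval treats insert genes as independent draws and covers the spread between genes only. As a measure of what libraries add, the promoter ratio of 1 host gene had a median SD of 0.34 over the 5 libraries, each centred on its own host median, and 10% of host genes exceeded 0.69. The size of the difference depends on the pseudocount, and 0.5 times the gene mean in place of 0.1 gave 0.83. How the start sites of the insert genes were found is not stated in the labels or headers, and the part of misplaced starts in this difference was not tested.

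Below the line of -1, called depleted here, lay 21 of 52 insert promoters (40.4%, exact 95% interval 27.0 to 54.9), against 87.3% of host promoters. Below -2 lay 7 (13.5%), against 64.0%. Above 0, called filled because the promoter then holds more signal than the gene, lay 6 (11.5%, exact 95% interval 4.35 to 23.4), against 2.12%. The remaining 25 lay between the lines. Depleted promoters were thus less frequent on the insert than on the host chromosomes, and filled promoters were the smallest class on both. With the larger pseudocount 25% of insert promoters, against 74.4%, were depleted. With the lowest 100 bp between -250 and 0 bp in place of the fixed window, 57.7%, against 94.3%, were depleted and 3.85%, against 0.678%, were filled, so whether depleted promoters are a minority on the insert depends on the window.

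**Figure D2:**
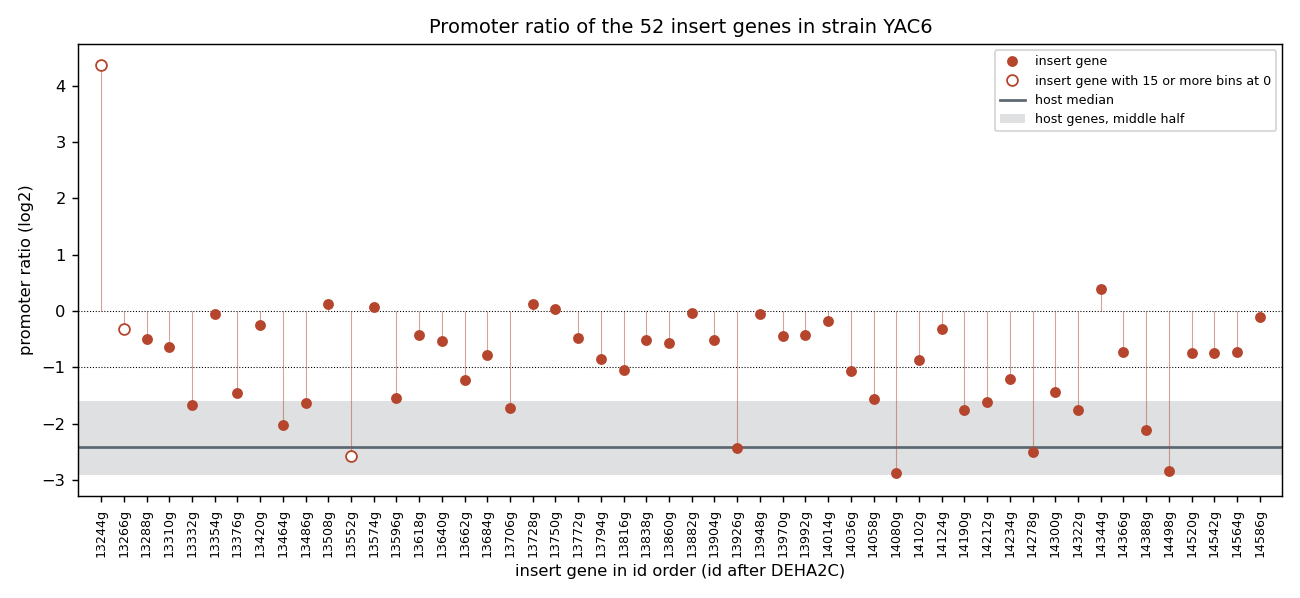
Promoter ratio (log2) of the 52 insert genes of strain YAC6 in identifier order, with open circles for the 3 genes with many bins at 0; the grey line is the median of the 4575 host genes (-2.41) and the band spans their quartiles. Most insert genes stand above the band, and deep promoters are scattered along the insert.

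The deepest promoters of the insert were as empty as typical host promoters. DEHA2C14080g had the lowest ratio, -2.87, with a promoter signal of 0.0506 and 0.916 inside the gene. DEHA2C14498g followed at -2.85 (0.0948 and 1.27), DEHA2C13552g at -2.58 (0.127 and 1.12) and DEHA2C14278g at -2.51 (0.0706 and 0.853). DEHA2C13926g had -2.44, DEHA2C14388g -2.11, DEHA2C13464g -2.03 and DEHA2C14322g -1.76. The first 5 of these are the insert genes below the host median. Part of the low promoter signal of DEHA2C13552g comes from its empty stretch, which reaches to -100 bp.

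Among the filled promoters, the most extreme value is set by missing signal inside the gene. DEHA2C13244g had a ratio of 4.38 with an ordinary promoter signal of 0.595, because only 0.00339 remained between 100 and 500 bp, and its value therefore depends on the pseudocount. The other 5 were close to level: DEHA2C14344g at 0.39 (promoter 1.26, gene 0.931), DEHA2C13508g and DEHA2C13728g both at 0.13, DEHA2C13574g at 0.07 and DEHA2C13750g at 0.03. On the other side of the line DEHA2C13882g had -0.03 and DEHA2C13354g -0.05, so the number called filled turns on small differences. At the other line, DEHA2C13816g (-1.05) and DEHA2C14036g (-1.06) were just inside the depleted class, with DEHA2C14102g (-0.88) and DEHA2C13794g (-0.84) just outside.

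Deep and shallow promoters were mixed along the insert. The longest run of neighbouring listed identifiers on 1 side of -1 was the 6 from DEHA2C14190g to DEHA2C14322g, all depleted, with ratios of -2.51 to -1.21. These 6 are not separate promoter regions. DEHA2C14212g shares its upstream region with DEHA2C14234g, and DEHA2C14300g with DEHA2C14322g, as described below. An identifier between DEHA2C14234g and DEHA2C14278g is not listed. On the other side the longest runs held 4 genes each, and there were 5 of them, among them DEHA2C13838g to DEHA2C13904g (-0.57 to -0.03) and the last 4 genes, DEHA2C14520g to DEHA2C14586g (-0.74 to -0.11). In blocks of 13 genes in identifier order the median ratio was -0.49, -0.57, -0.51 and -1.21, with 5, 4, 5 and 7 depleted and 3, 2, 0 and 1 filled promoters. The last block was the deepest, and it holds the run of 6. Orientation made little difference to the count: 10 of 26 genes listed as forward and 11 of 26 listed as reverse were depleted, with medians of -0.65 and -0.74.

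Several neighbouring genes are windows on the same DNA, so some promoters were read from both sides. Sliding 1 gene's signal along its neighbour's, turned round where the strands differ, found a stretch of the same DNA in 17 of 51 neighbouring pairs and fixed the distance between their starts. The misfit, the root mean square difference divided by the SD of the signal over the shared bins, was at most 0.135 in those pairs and at least 0.423 in the other neighbouring pairs. Of 1128 pairs of genes 5 or more identifiers apart, 0 passed the limit of 0.15, and the lowest misfit among them was 0.227. Among host genes, 160 pairs passed in both YAC6 and YAC7, and 159 of these gave the same distance within 5 bp. Of the insert pairs, 10 were divergent, with starts 75 to 442 bp apart, so that each pair shares 1 upstream region, 5 were tandem and 2 convergent. The 20 genes of the divergent pairs had a median promoter ratio of -0.63 with 7 depleted and 3 filled, and the other 32 genes had -0.79 with 14 depleted and 3 filled.

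Among divergent pairs whose windows overlap, starts lay closer together on the insert than on the host chromosomes. Another 3 divergent insert pairs gave no shared DNA, and pairs too far apart to overlap cannot be found in this way on insert or host. The median distance was 111 bp in the 10 insert pairs and 156 bp in 873 host pairs found from the same library, and 6 of 10 insert pairs, against 26.2% of host pairs, had starts no more than 120 bp apart. At such a distance the -1 nucleosome of 1 gene can be the +1 nucleosome of the other. In those 6 pairs 3 of 12 genes were depleted, with a median of -0.47, against 84.1% of 458 host genes in pairs as close, with a median of -1.78. In the 4 wider pairs 4 of 8 insert genes were depleted, with a median of -0.91, against 92.5% of 1288 host genes and a median of -2.69. In both distance classes the insert promoters were thus fuller than the host promoters of the same class. The wider class took all pairs over 120 bp, so distances within it were not matched.

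DEHA2C14212g and DEHA2C14234g, 111 bp apart, were both depleted (-1.62 and -1.21), and their lowest stretch lies between the starts. The same region can be called depleted for 1 gene and not for the other. DEHA2C14014g and DEHA2C14036g, 79 bp apart, share a dip between the starts, yet DEHA2C14014g had -0.17 and DEHA2C14036g -1.06. The -1 nucleosome of DEHA2C14014g, at -150 bp, is the +1 nucleosome of DEHA2C14036g, and the promoter signal was 0.855 for DEHA2C14014g and 0.412 for DEHA2C14036g. DEHA2C13728g and DEHA2C13750g, 97 bp apart, were both filled, and DEHA2C13618g and DEHA2C13640g, 75 bp apart, both lay between the lines at -0.42 and -0.53.

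**Figure D3:**
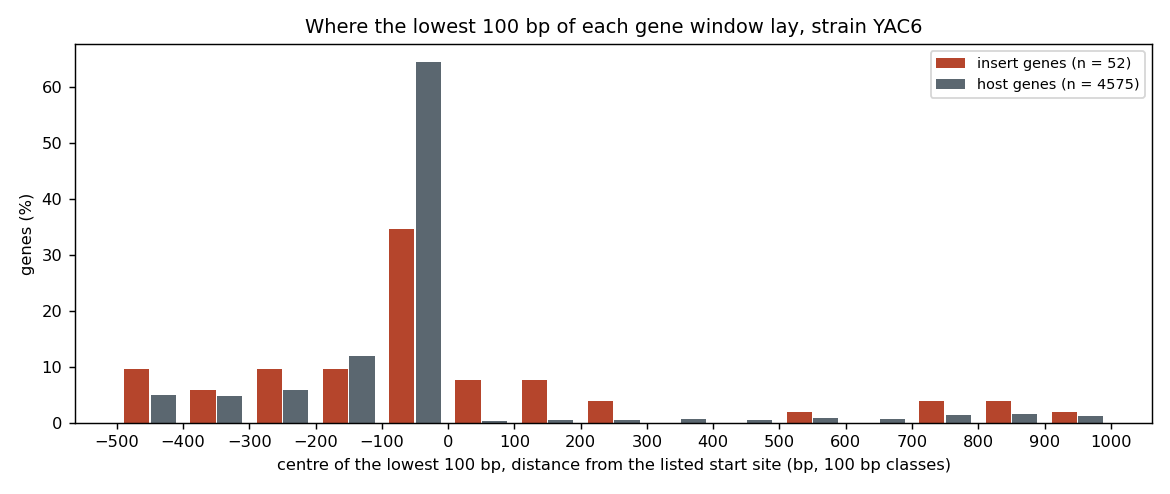
Share of genes (%) by the centre of their lowest 100 bp, with distances relative to the listed start, in classes of 100 bp, for the 52 insert genes (red) and 4575 host genes (grey) of strain YAC6. The class from -100 to 0 bp holds 34.6% of insert genes and 64.4% of host genes, and the insert bars spread over both sides of it.

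The lowest 100 bp of a gene's window lay upstream of the start, between -250 and 0 bp, in 25 of 52 insert genes (48.1%), against 78.6% of host genes. Where several stretches were equally low, the one furthest upstream was taken. The low point lay further upstream in 11 (21.2%), against 13.3%, within the first 500 bp after the start in 10 (19.2%), against 2.38%, and beyond 500 bp in 6 (11.5%), against 5.68%. The first 500 bp after the start, where host genes seldom had their low point, held it in nearly as many insert genes (10) as the far upstream part (11). Not all of these are gaps inside the gene. The stretch reaches across the start in DEHA2C13772g (centred at 5 bp), DEHA2C14498g (15 bp), DEHA2C13574g and DEHA2C13618g (both 35 bp). In DEHA2C13244g it is the empty stretch. The low point of DEHA2C13552g, at 0 from -500 to -100 bp, is such a tie, and with the nearest stretch taken instead, 26 insert genes, against 78.8% of host genes, had it between -250 and 0 bp.

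These low stretches were also shallower on the insert. Their depth, log2 over the gene mean with the same pseudocount, had a median of -1.76 in insert genes and -2.75 in host genes, a difference of 0.98. In 10 insert genes (19.2%), against 1.38% of host genes, no 100 bp of the window fell below -1. DEHA2C13310g was the flattest at -0.67, followed by DEHA2C13574g (-0.72) and DEHA2C14124g (-0.74). The 10 also include DEHA2C13640g (-0.78), DEHA2C13618g (-0.81) and DEHA2C14344g (-0.99). In these genes the site of the lowest stretch carries little information.

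In other genes a deep gap lay away from the upstream zone. The 3 genes with many bins at 0 reached -3.46, the floor the pseudocount sets. Apart from them, the deepest low stretches outside the upstream zone were those of DEHA2C14542g (-3.02, centred at 705 bp), DEHA2C14520g (-2.90 at -385 bp), DEHA2C14498g (-2.76 at 15 bp), DEHA2C13684g (-2.71 at 195 bp) and DEHA2C13706g (-2.69 at -415 bp). These 5 genes stand for 3 gaps: DEHA2C14520g and DEHA2C14542g are tandem with starts 1094 bp apart and share 1, and DEHA2C13684g and DEHA2C13706g are divergent with starts 221 bp apart and share another, inside DEHA2C13684g. The gap of DEHA2C14498g ran across its start, from -190 to 80 bp.

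In divergent pairs a shared lowest stretch lay between the starts less often on the insert than on the host. With equally low stretches matched, a single lowest stretch served both genes in 7 of 10 insert pairs, against 82.6% of host pairs, and lay between the starts in 3 of 10, against 710 of 873 host pairs. It lay between them for DEHA2C13948g and DEHA2C13970g, for DEHA2C14014g and DEHA2C14036g, and for DEHA2C14212g and DEHA2C14234g. It lay outside for DEHA2C13244g and DEHA2C13266g, where it is the empty stretch inside DEHA2C13244g, for DEHA2C13618g and DEHA2C13640g (35 bp into DEHA2C13618g), for the pair 221 bp apart (195 bp into DEHA2C13684g) and for DEHA2C13728g and DEHA2C13750g (185 bp into DEHA2C13728g). The windows of DEHA2C13618g and DEHA2C13640g were flat, with depths of -0.81 and -0.78, so the site says little there. Where the lowest stretch lay outside, 1 of the 8 genes was depleted, DEHA2C13706g at -1.72, against 40.4% of all insert genes. These genes were picked by where their lowest stretch lay, so a low count follows in part from the choice.

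The width of the upstream gap varied more than its host counterpart. The longest run of bins below 0.5 times the gene mean that touched -250 to 0 bp had a median of 100 bp in insert genes, with the quartiles at 40 and 165 bp, and 150 bp in host genes, with the quartiles at 120 and 200 bp. No such bin was found in 8 insert genes (15.4%), against 1.38% of host genes. The widest, 480 bp for DEHA2C13552g and 350 bp for DEHA2C13266g, include bins at 0. Among the other insert genes, that of DEHA2C14058g ran 310 bp from -420 to -120 bp, that of DEHA2C14498g 280 bp across its start, that of DEHA2C13508g 280 bp from -500 to -230 bp ahead of a filled promoter, that of DEHA2C14388g 260 bp from -290 to -40 bp, and that of DEHA2C14278g 230 bp from -150 to 70 bp.

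**Figure D4:**
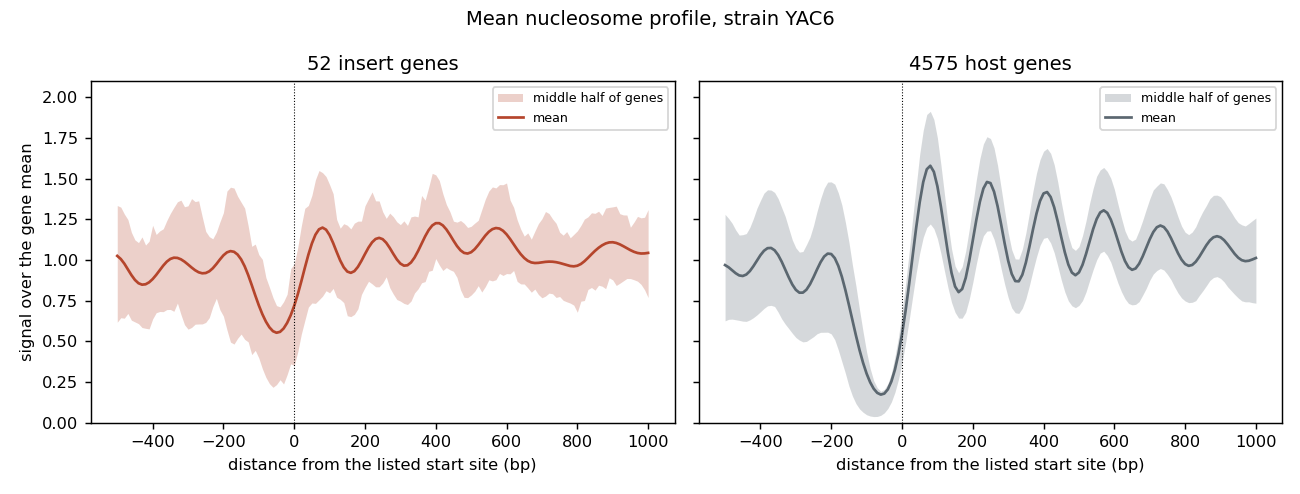
Mean signal over the gene mean against distance from the listed start site (bp), each gene scaled to its own mean, for the 52 insert genes (left) and the 4575 host genes (right) of strain YAC6; lines are means and bands span the quartiles. The insert trough is 0.553 and the host trough 0.173, while both +1 peaks stand at 80 bp.

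Averaged over genes, the insert kept the host's layout at lower contrast. The mean insert profile had its trough of 0.553 at -50 bp and its +1 peak of 1.20 at 80 bp, against a trough of 0.173 at -60 bp and a peak of 1.58 at 80 bp in the host profile. The +1 peak was 2.17 times the trough on the insert and 9.12 times on the host. The -1 peak was alike in height, 1.05 at -180 bp on the insert and 1.04 at -210 bp on the host. The insert value is raised by DEHA2C13244g, whose empty bins lower its gene mean. That gene stood at 4.35 times its mean at -180 bp before smoothing.

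In single insert genes the +1 nucleosome was placed less uniformly than in host genes. Its position, the highest smoothed point between 0 and 150 bp, lay within 30 bp of the host median of 80 bp in 31 of 52 genes (59.6%, exact 95% interval 45.1 to 73.0), against 93.2% of host genes. In 13 insert genes (25%), against 4.24%, the highest point was at an edge of that window, at 150 bp in 11 and at 0 bp in 2, so that the position read for these genes need not be that of a peak. The height over the gene mean differed less: its median was 0.51 in insert genes and 0.67 in host genes on the log2 scale, a difference of -0.16, and 43 insert genes (82.7%), against 90.9%, had a height above 0. For scale, the +1 height of 1 host gene had a median SD of 0.26 over the 5 libraries.

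The strongest +1 nucleosomes of the insert lay above the host upper quartile but did not reach the highest host values. Above that quartile, 0.96, lay 6 of 52 insert genes, and the highest, DEHA2C14300g, stood at percentile 87.7 of the host genes. DEHA2C14300g and DEHA2C13266g both had a height of 1.14, DEHA2C13244g 1.12, DEHA2C14036g 1.09 and DEHA2C13728g 1.07, of which only DEHA2C14300g and DEHA2C14036g had depleted promoters. For DEHA2C13244g and DEHA2C13266g the gene mean is lowered by empty bins, which raises the height. The highest point of DEHA2C13244g was at 0 bp, the edge of the window, and its signal only fell from there. Its value is thus not the height of a +1 peak. The weakest was that of DEHA2C13882g at -1.41, where a gap from -30 to 160 bp took the place of the nucleosome and only 0.393% of host genes were lower. DEHA2C14058g had -1.05, DEHA2C14190g -0.46, DEHA2C13618g -0.29 and DEHA2C14366g -0.25.

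The -1 nucleosome, the highest point from -320 to -130 bp, had a similar median height on the insert and on the host. The median height was 0.59 in insert genes and 0.55 in host genes, a difference of 0.04 that changed sign to -0.07 when the window was widened to -400 to -100 bp. A height above 0 was found in 44 insert genes (84.6%), against 79.3%, and in 16 (30.8%), against 27.0%, the highest point was at an edge of the window. The highest values were 2.11 for DEHA2C13244g, raised by a gene mean that its empty bins lower, 1.26 for DEHA2C14014g, 1.24 for DEHA2C13376g, 1.21 for DEHA2C13508g and 1.20 for DEHA2C14520g. The lowest was -9.22 for DEHA2C13552g, whose -1 window holds only bins at 0, so that the value comes from smoothing alone, followed by -1.34 for DEHA2C14058g, -0.40 for DEHA2C14388g, -0.35 for DEHA2C13288g and -0.26 for DEHA2C13640g. DEHA2C14058g was thus low at both flanking nucleosomes.

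**Figure D5:**
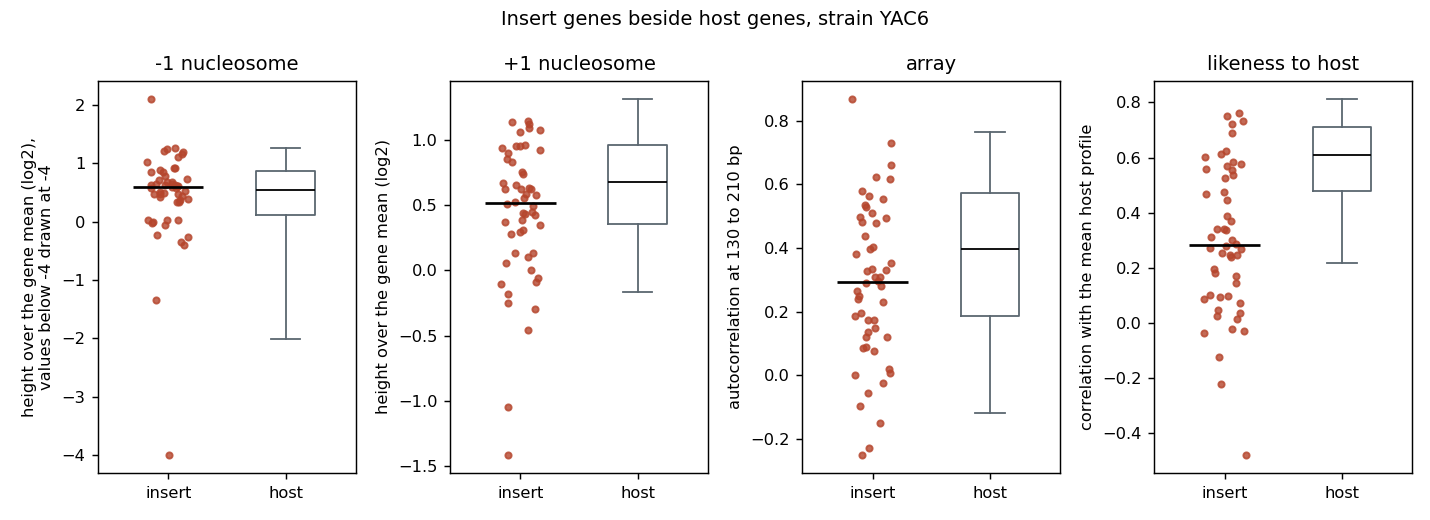
Height of the -1 and +1 nucleosomes over the gene mean (log2), array autocorrelation and correlation with the mean host profile, with 1 point per insert gene (n = 52, line at the median) and a box for the host genes (n = 4575; line at the median, box at the quartiles, whiskers at the 5th and 95th percentiles) of strain YAC6. Insert and host medians are close for the -1 nucleosome (0.59 and 0.55) and furthest apart for the correlation (0.281 and 0.608); DEHA2C13552g, at -9.22 in the first panel, is drawn at -4.

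Arrays in the gene bodies had a lower median autocorrelation on the insert, with peaks about as far apart as on the host. The highest autocorrelation of the signal from 0 to 1000 bp, at shifts of 130 to 210 bp, had a median of 0.292 in insert genes and 0.397 in host genes, a difference of -0.105 that became -0.0605 when the window began at 100 bp. For scale, the autocorrelation of 1 host gene had a median SD of 0.144 over the 5 libraries. The shift at which it was highest had a median of 170 bp in insert genes and 160 bp in host genes. The autocorrelation exceeded 0.5 in 11 insert genes (21.2%), against 35.1%, and was below 0 in 6 (11.5%), against 10.4%. Peaks with a prominence of 0.2 times the gene mean numbered 4 per insert gene and 5 per host gene at the median, and 24 insert genes (46.2%), against 72.8%, had 5 or more. The distance between neighbouring peaks had a median of 170 bp on both insert and host, with the quartiles at 160 and 212.5 bp on the insert and at 160 and 180 bp on the host, so long distances were more frequent on the insert.

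Some insert genes carried arrays as regular as those of the host. DEHA2C13244g had the highest autocorrelation, 0.868, but most of that stretch is empty and the value describes a falling edge and zeros. Next came DEHA2C14234g (0.728), with peaks at 90, 250, 400, 560, 730 and 880 bp, DEHA2C13662g (0.659), DEHA2C13926g (0.623) with peaks at 70, 240, 400, 570 and 770 bp, and DEHA2C13596g (0.616). All 4 had depleted promoters, against 40.4% of all insert genes. The genes next in rank did not: DEHA2C13838g had 0.580 and peaks at 80, 250, 410, 590, 750 and 920 bp with a promoter ratio of -0.51. It was followed by DEHA2C14102g (0.563), DEHA2C13640g (0.552) and DEHA2C13882g (0.534). The lowest values were -0.251 for DEHA2C13772g, -0.229 for DEHA2C14542g, -0.149 for DEHA2C14124g, -0.0962 for DEHA2C13288g and -0.0562 for DEHA2C13420g, none of them depleted. DEHA2C13310g (-0.025) came next, also not depleted, and then DEHA2C14036g (0.00189) and DEHA2C13376g (0.00551), both depleted.

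Depleted and other promoters of the insert had like arrays. The median autocorrelation was 0.289 in the 21 genes with a depleted promoter and 0.295 in the 31 others, and the median +1 height was 0.55 and 0.49. The +1 position did go with the promoter, within 30 bp of the host median in 17 of 21 genes with a depleted promoter and in 14 of 31 others. In host genes it was so in 3782 of 3993 and in 480 of 582. Most host genes without a depleted promoter thus still had their +1 nucleosome in the usual place, and most such insert genes did not. The median host autocorrelation was 0.408 and 0.325 in these groups.

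Likeness to the host pattern as a whole was read as the correlation of each gene's profile with the mean host profile over the bins. Its median was 0.281 in insert genes and 0.608 in host genes, and 45 of 52 insert genes lay below the host median. DEHA2C13596g (0.763), DEHA2C13926g (0.749), DEHA2C13464g (0.732), DEHA2C14234g (0.721) and DEHA2C14080g (0.689) were the most host-like, and all had depleted promoters. This is partly built into the measure, because the trough of the mean host profile, at -60 bp, lies inside the promoter window. The median correlation was 0.559 in insert genes with a depleted promoter and 0.144 in the others. All 3 of a depleted promoter, a lowest stretch between -250 and 0 bp and a +1 nucleosome near the host position were found together in 14 insert genes (26.9%), against 71.2% of host genes. At least 1 of the others was missing in 7 depleted genes. One is DEHA2C13552g, which lacks none with the nearest of its equally low stretches, a choice that gives 15 insert genes (28.8%), against 71.3%, with all 3. The others are DEHA2C13706g, DEHA2C13816g, DEHA2C14058g, DEHA2C14278g, DEHA2C14322g and DEHA2C14498g. This combination was chosen after the values were seen.

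The other *D. hansenii* insert, in strain YAC7, was read in the same way against 4574 host genes of its own library. These are separate strains, inserts and libraries, so the values are given side by side. The insert minus host difference in promoter ratio was 1.67 in YAC6 and 0.98 in YAC7, where the insert median was -0.997 and the host median -1.98. Depleted promoters made up 40.4% of the YAC6 insert, and in YAC7 they made up 50% of insert genes (51 of 102) and 82.0% of host genes. Filled promoters made up 11.5% of the YAC6 insert, and in YAC7 14.7% of insert genes and 3.89% of host genes. The lowest stretch lay between -250 and 0 bp in 48.1% of the YAC6 insert, and in YAC7 in 47.1% of insert genes and 71.0% of host genes. A +1 nucleosome near the host position was found in 59.6% of the YAC6 insert, and in YAC7 in 49.0% of insert genes and 85.0% of host genes. In each of these shares the insert stood on the same side of its host in both strains, and the difference between the inserts was not tested. The insert minus host difference in +1 height was -0.16 in YAC6 and -0.40 in YAC7, and that in autocorrelation was -0.105 and -0.029. Arrays in YAC7 were weak in the host as well, with a median autocorrelation of 0.142 over host genes, so the smaller difference there stands on a lower base. Many bins at 0 were found in 3 of 52 genes in YAC6 and in 1 of 102 in YAC7 (0.98%), against 0.612% of YAC7 host genes.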

How the data were processed

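The deposited tables hold signal (coverage of nucleosomal DNA), per the file headers as 151 values a gene, 1 per 10 bp, that run from -500 to 1000 bp around its start. The authors scaled it to a mean near 1, and its values are whole multiples of 1 step. CASAVA 1.7.0 is named in the submitters' processing notes. Not given in the sources used here are the aligner, the genome builds, whether reads were extended and where the start sites come from. The reads behind a value are unknown, so no counting interval was computed. Missing suffix letters of 214 host names were restored from the strand column.

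All measures were computed per gene in Python 3.11.15 with NumPy 2.4.6 and SciPy 1.17.1, and figures with Matplotlib 3.10.9. Profiles were smoothed with a Gaussian (SD 20 bp) for nucleosome positions, heights, peaks and autocorrelation. A gene needed a mean of at least 10% of the median host gene. Intervals are exact binomial (95%), for shares and for the rank of a median, and cover the spread between genes of 1 library only. The code was checked on simulated profiles. No count test applies to scaled signal.

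The insert genes named are those with the 8 lowest and the 8 highest ratios, those beside the lines at -1 and 0, those with 15 or more bins at 0, the 5 highest and lowest for +1 height, -1 height, autocorrelation and mean, the 5 deepest stretches outside -250 to 0 bp, the longest run on 1 side of -1, and the first and last identifier. A few further genes were named after their values were seen: members of the divergent pairs and of the 4-gene runs, the flattest and most host-like genes, those with the widest gaps, and the 7 depleted genes that missed another feature. The members and lists were chosen with earlier results of these data known. The search for shared DNA, which took pairs with a misfit under 0.15 over at least 25 bins, the peak count, the nearest of equally low stretches and the combination of 3 features were added after the data were seen. Gene functions of the insert are not described, since its identifiers are not annotated in the sources used here.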

Additional observations from a re-analysis of the deposited data

How the results depend on the processing

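Of 85 alternative settings over 13 results, 79 left the value alike, 5 moved it and 1 reversed its sign. Alike means inside the 95% interval, which covers the spread between insert genes only. The number of genes with many bins at 0 has no interval. It was called alike at 3 with a line of 8 bins and at 2 with a line of 30, against 3. The pseudocount sets the size of the promoter difference: it was 2.14 with 0.02 times the gene mean and 0.83 with 0.5 times, against 1.67 with 0.1 times. With 0.5 times, 25% of insert promoters, against 74.4% of host promoters, were depleted. With the lowest 100 bp between -250 and 0 bp in place of the fixed promoter window, 57.7% of insert promoters, against 94.3%, were depleted and 3.85%, against 0.678%, were filled. Since the fixed window lies inside the searched one, nearly every ratio must be lower, in insert and host genes alike. The -1 height difference became -0.0742 in the window from -400 to -100 bp. Leaving out the 3 genes with many bins at 0 gave a promoter difference of 1.66, and leaving out the second gene of each pair with the same DNA, chosen after seeing the data, gave 1.67. With the YB and YJ host genes kept it was 1.54. No paired analysis was possible because each strain gave 1 library and no result comes from a test. Whether the listed *D. hansenii* start sites are as exact as the host ones is not given in the sources used here, and its part in the shallower promoters, the scattered low stretches and the spread of +1 positions was not tested.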

Other observations

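The host genes left out differed by chromosome. In YAC6 the 365 genes whose names start with YB had a median promoter ratio of -1.68 with 3.84% filled, and the 318 whose names start with YJ had a median of 0.13 with 58.2% filled, both by start sites that are held to be displaced.

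The 6 host genes chosen as yardsticks varied between libraries, with SDs of 0.69 to 1.49 in promoter ratio. The cyclin gene CLN2 had a promoter ratio of -3.00 in YAC6 and -0.84 ± 1.49 (SD, n = 5) over the strains. The actin gene ACT1 had -0.53 in YAC6 and -1.75 ± 1.19 (SD, n = 5), and the glycolytic PGK1 had -2.52 and -0.85 ± 1.17 (SD, n = 5). ADH2, an alcohol dehydrogenase, had -2.84 and -2.33 ± 0.86 (SD, n = 5), the invertase gene SUC2 -2.15 and -2.93 ± 0.69 (SD, n = 5), and the phosphate transporter gene PHO84 -2.19 and -0.89 ± 1.07 (SD, n = 5). The SDs here are of uncentred values, and the host medians of the 5 libraries ran from -2.41 to -1.84. The median SD of 0.34 over host genes is of centred values, so the 2 kinds of SD are not directly comparable.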
